A study of Mus musculus with 12 samples.

Results

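The enzymes and regulators of redox and thiol defence form a closed set of 40 genes: those that make and recycle glutathione, the glutathione peroxidases, the superoxide dismutases and catalase, the peroxiredoxins, the thioredoxin and glutaredoxin systems, the methionine sulfoxide reductases, the Nrf2 regulators with the haem enzymes they control, and suppliers of NADPH. They were found by gene symbol, and each gene was read from the probe set with the highest mean over all arrays. Of the 40, 36 were measured by a probe set with exactly 1 symbol, out of 18193 genes so measured. Prdx1 was only on probe sets with several symbols, and Prdx5, Prdx6 and G6pdx were not analysed here. Of the 36 measured members, 24 have several probe sets and 12 have 1.

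RNA was taken from 4 groups of untreated mice aged 2 months, with 3 arrays per group: laser-captured motoneurons of Gdap1 knockout mice, captured motoneurons of wild type mice, sciatic nerve lysates of Gdap1 knockout mice and nerve lysates of wild type mice. The knockout is a deletion of exon 5 of Gdap1, a gene for a mitochondrial outer membrane protein that is mutated in a form of Charcot-Marie-Tooth neuropathy, and the study looked for transcripts that differ without it. Per the design text the Gdap1 probe sets lie in exons 4 and 6 and show no loss of the transcript, so they check nothing about the labels. Per the same text, 5 mice gave RNA, and 3 samples for each tissue and genotype were kept for their RNA yield and quality. Neither the mouse strain nor a tissue-restricted deletion is mentioned in the labels.

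Reactive oxygen species leak from mitochondria and arise from oxidases. Superoxide dismutases turn superoxide into hydrogen peroxide, which catalase, the glutathione peroxidases and the peroxiredoxins remove. The reducing power comes from NADPH by way of glutathione and thioredoxin. The transcription factor Nrf2 (Nfe2l2), held in check by Keap1, raises many of these genes by binding antioxidant response elements, while motoneurons are known for high metabolic demand and for their sensitivity to mutant SOD1.

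The promoters of the genes on which the comparisons below turn show what such an element looks like. In RefSeq windows of GRCm38.p6, from 250 bases before to 50 bases after each start, the core TGACNNNGC was searched on both strands, where N is any base. It was found in at least 1 window of 9 of the 32 members that have one (28.1%), against 14.0% of 27025 genes. The 9 were Gclm, Ggct, Prdx1, Srxn1, Txnrd1, Sod1, Nfe2l2, Blvra and G6pdx, and the match in Prdx1 overlaps an AP-1 motif (TGAGTCA or TGACTCA). A match describes these letters only. Shown here are Gclm, whose values were lower in knockout motoneurons, Blvra, whose values were higher, Txnrd1, which varied little, and the Nrf2 gene itself, with the matched bases in capitals, read 5′ to 3′ along the strand of the gene.
Gclm: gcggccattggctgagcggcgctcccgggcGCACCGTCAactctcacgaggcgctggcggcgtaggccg
Blvra: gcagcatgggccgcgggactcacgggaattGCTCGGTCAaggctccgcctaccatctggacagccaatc
Txnrd1: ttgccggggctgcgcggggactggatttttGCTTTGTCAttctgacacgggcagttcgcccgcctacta
Nfe2l2: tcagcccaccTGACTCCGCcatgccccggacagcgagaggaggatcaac
In Gclm (chr3:122245393-122245461, plus strand) the match lies 134 to 126 bases before the start, on the opposite strand. In Blvra (chr2:127070578-127070646, plus strand) it lies 49 to 41 bases before the start, also on the opposite strand. In Txnrd1 (chr10:82859084-82859152, plus strand) it lies 92 to 84 bases before the start, again on the opposite strand. In Nfe2l2 (chr2:75704865-75704913, minus strand) the match is on the gene's own strand, 240 to 232 bases before the start.

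The arrays carried the transcripts their labels name. Markers of motoneurons averaged 11.34 to 11.71 on the log2 scale in motoneuron arrays, against 6.63 to 7.15 in nerve arrays, and Schwann cell markers averaged 8.61 to 8.91 in motoneuron arrays, against 14.47 to 14.67 in nerve arrays. Oligodendrocyte markers averaged 10.29 to 11.32 in motoneuron arrays, against 7.56 to 7.91 in nerve arrays, so the captured material was not free of glial transcripts. Array medians were 6.535 to 6.585 in motoneurons and 8.285 to 8.398 in nerve, which puts the tissues on different scales. In motoneurons, wild type replicate 3 stood apart: over all probe sets it correlated at 0.989 on average with the knockout group and at 0.9867 with its own. Its 18S signal of 10.86 lay within the range of the knockout group, 10.72 to 10.98, where wild type replicates 1 and 2 had 10.37 and 10.44. Xist was low and the Y-linked Eif2s3y high in knockout replicate 2 alone among the motoneuron arrays, and in nerve Xist was high only in knockout replicate 3 and wild type replicate 2.

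In motoneurons none of the 36 members passed the test for genotype at an adjusted p under 0.05 (limma, Benjamini-Hochberg over 45037 probe sets), and 0% of all probe sets did. At an unadjusted p under 0.05 there were 10 members (27.8%), 5 with higher and 5 with lower values in knockout, where 17% of all probe sets (8.78% higher and 8.24% lower) and 20.8% of the 18193 genes had one. Values were above 0 for 17 members and below 0 for 19, against 55.7% of probe sets above 0. Groups did not overlap for 11 members (30.6%), against 22.5% of probe sets and 25.8% of genes. The median difference was -0.0086 on the log2 scale over the members and 0.019 over all genes. The values with the smallest p were biliverdin reductase a, which was higher, and catalase, thioredoxin and glutathione reductase, which were lower.

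**Figure D1:**
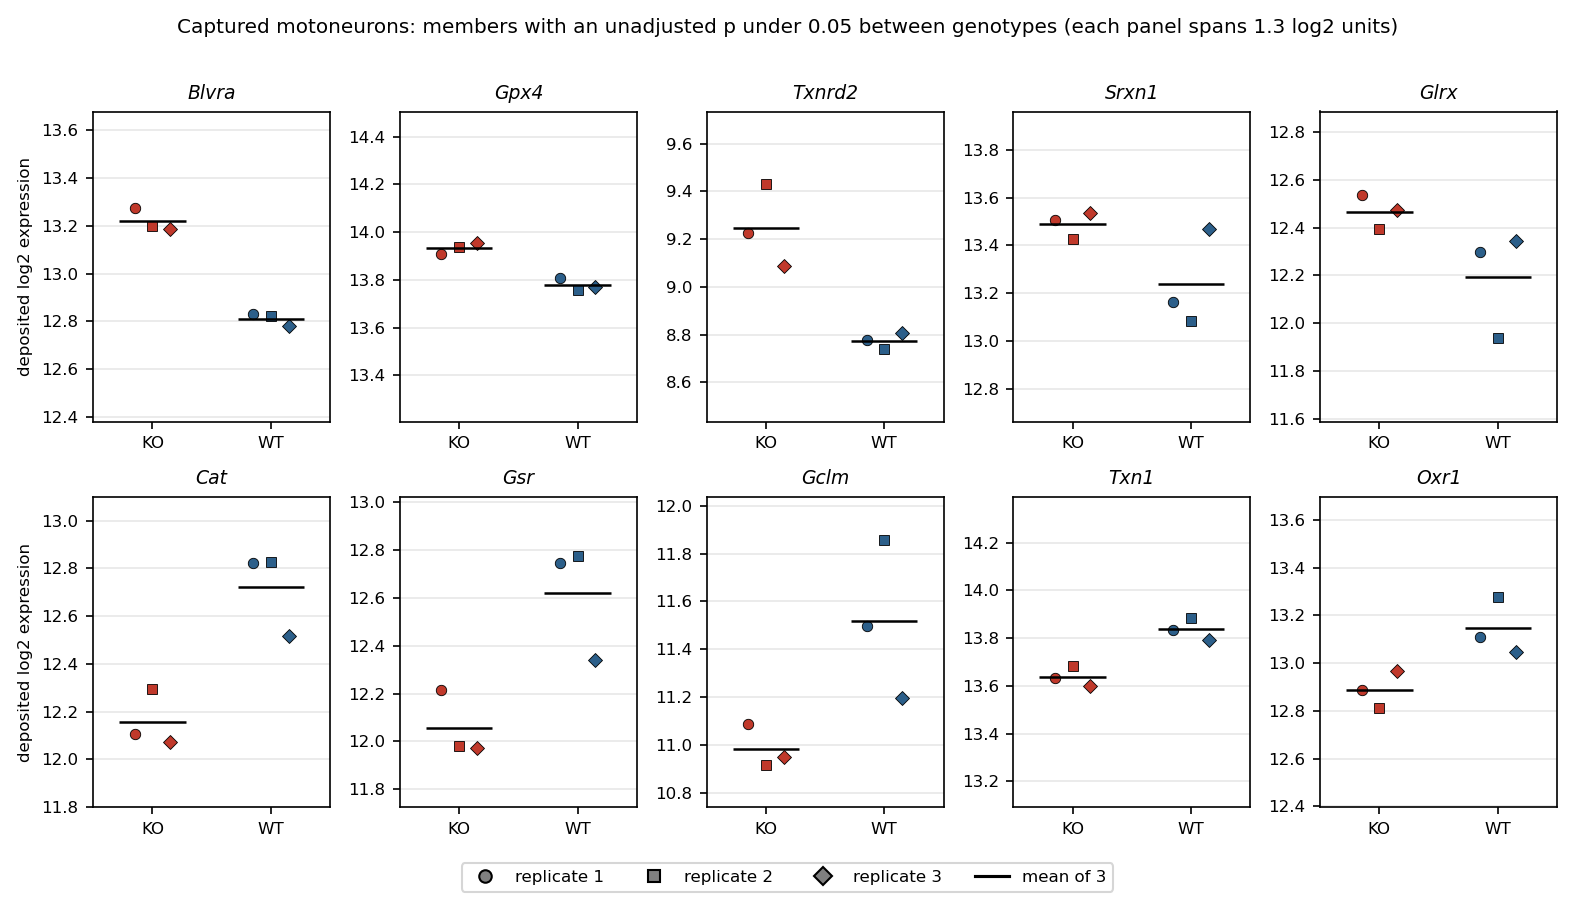
Deposited log2 expression (vertical axis) in captured motoneurons of knockout (left, red) and wild type (right, blue) mice, for the 10 members with an unadjusted p under 0.05; symbols mark replicates and bars the mean of 3 arrays. In Blvra, Gpx4 and Txnrd2 the wild type arrays lie close together and below all knockout arrays, though in Gpx4 by little. In Srxn1, Cat, Gsr and Gclm the wild type diamond, replicate 3, lies nearest the knockout arrays.

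Catalase (Cat) breaks down hydrogen peroxide in peroxisomes. It read 12.11, 12.30 and 12.07 in knockout arrays, against 12.82, 12.83 and 12.52 in wild type arrays. Every knockout array lay below every wild type array, with wild type replicate 3 the nearest. The difference was -0.56 (SE 0.11, limma adjusted p = 0.108), a linear ratio of 0.677, and the other Cat probe set gave -0.57 (adjusted p = 0.113). The mitochondrial superoxide dismutase Sod2 read 12.95, 12.80 and 12.79 in knockout arrays and 13.29, 13.45 and 12.82 in wild type arrays. Here wild type replicate 3 lay among the knockout arrays and the groups overlapped. The difference was -0.34 (adjusted p = 0.305). The other Sod2 probe sets gave -0.42, -0.73 and -0.02, none past the threshold. The secreted Sod3 gave -0.34 at a low level of 5.59 to 6.55, and the cytosolic Sod1, the gene mutated in familial amyotrophic lateral sclerosis, read 14.86 to 14.95 in knockout arrays and 14.87 to 14.94 in wild type arrays. The second Sod3 probe set gave 0.19 (adjusted p = 0.602), without overlap. For Sod1 the difference was -0.0069, and it turned to 0.0111 without wild type replicate 3, so it has no settled direction. The other 4 Sod1 probe sets gave -0.02, 0.19, 0.51 and 1.01, the last with an adjusted p of 0.124. In this group only Cat, 1 of 4 (25%), had an unadjusted p under 0.05 on the probe set chosen for the gene, where 20.8% of all genes had one.

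The glutathione genes gave lower values in 5 of 6 cases, 2 of them with an unadjusted p under 0.05, where 20.8% of all genes had one. Glutathione reductase (Gsr), which regenerates reduced glutathione with NADPH, read 12.21, 11.98 and 11.97 in knockout arrays, against 12.75, 12.78 and 12.34 in wild type arrays. The groups did not overlap and wild type replicate 3 was again the nearest. The difference was -0.57 (SE 0.13, adjusted p = 0.125). Gclm, the regulatory subunit of the ligase that limits glutathione synthesis, read 11.09, 10.92 and 10.95 in knockout arrays, against 11.50, 11.86 and 11.20 in wild type arrays. These groups did not overlap either, and the wild type arrays were spread over a wider range than the knockout arrays. The difference was -0.53 (SE 0.17, adjusted p = 0.183), whereas the second Gclm probe set gave -0.09 (adjusted p = 0.723). Gclc, the catalytic subunit of the same ligase, read 10.19, 9.81 and 10.27 in knockout arrays and 10.38, 10.58 and 10.36 in wild type arrays, a difference of -0.35 (adjusted p = 0.316). Its other probe set gave -0.85 (SE 0.23, adjusted p = 0.151). Glutathione synthetase (Gss) gave 0.09, Ggct, which releases 5-oxoproline from gamma-glutamyl peptides, -0.02, and the cystine transporter subunit Slc7a11 -0.09 at a level of 3.28 to 4.88, and in each the groups overlapped. Ggct turned to 0.0908 without wild type replicate 1, Slc7a11 to 0.281 without wild type replicate 2 and Gss to -0.0703 without knockout replicate 2. Gss, Ggct and Slc7a11 thus have no settled direction.

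The glutathione peroxidases gave higher values in 4 of 5 cases. Of the 5, 1 (20%) had an unadjusted p under 0.05, near the 20.8% of all genes that had one. Gpx4, which reduces lipid hydroperoxides in membranes and guards against ferroptosis, read 13.91, 13.94 and 13.95 in knockout arrays, against 13.81, 13.76 and 13.77 in wild type arrays. The separation was small but complete, with little spread in either group. The difference was 0.15 (SE 0.04, adjusted p = 0.136), and the second Gpx4 probe set gave 0.05 (adjusted p = 0.719). The cytosolic Gpx1 gave 0.11, the plasma enzyme Gpx3 gave 0.28 and Gpx7, an enzyme of the endoplasmic reticulum, gave 0.17, while Gpx8, also of the endoplasmic reticulum, gave -0.08 at a low level of 6.75 to 8.12. In each of these the groups overlapped. Gpx8 turned to 0.319 without knockout replicate 2, so it has no settled direction.

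In the peroxiredoxin group, sulfiredoxin (Srxn1), which restores overoxidised peroxiredoxins, read 13.51, 13.43 and 13.54 in knockout arrays, against 13.16, 13.08 and 13.47 in wild type arrays. Wild type replicate 3 lay among the knockout arrays. The difference was 0.25 (SE 0.1, adjusted p = 0.258), and the other 3 Srxn1 probe sets gave 0.17, 0.26 and -0.11. For the peroxiredoxins themselves the groups overlapped: Prdx2, which is cytosolic, read 13.89 to 13.98 in knockout arrays and 13.89 to 13.93 in wild type arrays. Prdx3, the mitochondrial one, read 12.82 to 12.85 in knockout arrays and 12.68 to 12.95 in wild type arrays. Prdx4, of the endoplasmic reticulum, read 11.46 to 11.53 in knockout arrays and 11.41 to 11.58 in wild type arrays. The 4 Prdx4 probe sets differed in sign.

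Among 10 genes of the thioredoxin, glutaredoxin and methionine sulfoxide reductase systems, 7 values were higher and 3 lower. At an unadjusted p under 0.05 there were 2 and 1, or 30% of the 10, where 20.8% of all genes had one. Cytosolic thioredoxin (Txn1) read 13.63, 13.68 and 13.60 in knockout arrays, against 13.84, 13.88 and 13.79 in wild type arrays. All knockout arrays lay below all wild type arrays, by little. The difference was -0.20 (SE 0.05, adjusted p = 0.124). Mitochondrial thioredoxin reductase (Txnrd2) read 9.23, 9.43 and 9.09 in knockout arrays, against 8.78, 8.74 and 8.81 in wild type arrays. The wild type arrays were close together and all below the knockout arrays. The difference was 0.47 (SE 0.16, adjusted p = 0.206), and the 3 other Txnrd2 probe sets gave 0.41, 0.72 and 0.28. Glutaredoxin (Glrx), which removes glutathione from protein thiols, read 12.54, 12.39 and 12.47 in knockout arrays, against 12.30, 11.94 and 12.34 in wild type arrays, without overlap. The difference was 0.27 (adjusted p = 0.286), and 0.146 without wild type replicate 2, the lowest array. The second Glrx probe set gave 0.33, with overlap. The cytosolic reductase Txnrd1, whose promoter match is shown above, read 13.44 to 13.58 in knockout arrays and 13.40 to 13.63 in wild type arrays. Mitochondrial thioredoxin Txn2 gave 0.06, and the glutaredoxins Glrx2, Glrx3 and Glrx5 gave -0.15, 0.34 and -0.11, all with overlap. Glrx3, at a low level of 4.61 to 6.36, turned to -0.106 without wild type replicate 1. Txnrd1 turned to -0.0191 without wild type replicate 2, and its 3 probe sets differed in sign. Glrx3 and Txnrd1 thus have no settled direction. Methionine sulfoxide reductases repair oxidised methionine: Msra gave 0.12, without overlap, and Msrb1 0.16, with overlap.

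Of the Nrf2 and haem genes, 1 of 5 (20%) had an unadjusted p under 0.05, near the 20.8% of all genes that had one. Biliverdin reductase a (Blvra), which turns the haem breakdown product biliverdin into bilirubin, read 13.28, 13.20 and 13.19 in knockout arrays, against 12.83, 12.82 and 12.78 in wild type arrays. The gap between the groups was several times the spread within either, and no wild type array stood apart. The difference was 0.41 (SE 0.054, adjusted p = 0.0904), a linear ratio of 1.33, and the gene has 1 probe set. Nrf2 itself (Nfe2l2) read 6.89, 5.80 and 6.67 in knockout arrays and 7.36, 7.04 and 6.35 in wild type arrays, with overlap and a difference of -0.46 (adjusted p = 0.566) at a low level. Keap1 read 11.46 to 11.60 in knockout arrays and 11.48 to 11.65 in wild type arrays. The 2 probe sets of Nfe2l2 differed in sign, as did the 2 of Keap1. The Nrf2 target Nqo1, a quinone reductase, gave -0.23, and Hmox1, the inducible haem oxygenase, 0.13, both with overlap. Hmox1 turned to -0.0331 without wild type replicate 3, so it has no settled direction.

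Oxr1, a protein that protects neurons from oxidative damage, read 12.89, 12.81 and 12.97 in knockout arrays, against 13.11, 13.28 and 13.05 in wild type arrays. The groups did not overlap. The difference was -0.26 (SE 0.08, adjusted p = 0.171), and the other 2 Oxr1 probe sets gave -0.24 and 0.12. Nnt, the transhydrogenase that makes NADPH in mitochondria, read 11.61, 11.52 and 11.93 in knockout arrays and 11.76, 12.96 and 11.81 in wild type arrays. Wild type replicate 2 stood above the other 5 arrays, and the difference was -0.49 (SE 0.3, adjusted p = 0.462). Without that array it was -0.0969, and the other 2 Nnt probe sets gave -0.50 and 0.18.

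Calls among the members depended on wild type replicate 3. It was the wild type array most like the knockout group, and the nearest to the knockout mean for 22 of the 36 members (61.1%). Leaving it out therefore favours calls, and the calls made without it are no independent support for a difference. Without that array 11 of 36 members passed (30.6%), against 10.3% of probe sets and 14% of genes. Higher in knockout were Gpx1, Gpx4, Srxn1, Msrb1 and Blvra. Lower were Gclm, Gsr, Sod2, Cat, Txn1 and Oxr1. Of these, Gpx1, Gpx4 and Msrb1 passed narrowly, at limma adjusted p of 0.0499, 0.0495 and 0.0473. Cat then differed by -0.67 (adjusted p = 0.00689, range 0.00689 to 0.383 over 17 alternatives) and Gsr by -0.71 (0.00692, range 0.00692 to 0.45). Blvra differed by 0.395 (adjusted p = 0.00716, range 0.00716 to 0.361), Sod2 by -0.52 (0.00888, range 0.00888 to 0.896), Srxn1 by 0.37 (0.00922, range 0.00922 to 0.83) and Gclm by -0.69 (0.0187, range 0.0187 to 0.625). Without that array the difference of Gpx1 was 2.21 times, that of Msrb1 1.73 times, that of Sod2 1.54 times, that of Srxn1 1.46 times and that of Blvra 0.964 times its value with all arrays. Wild type replicate 3 was the wild type array nearest the knockout mean for 8 of the 10 members with an unadjusted p under 0.05, and for 63.4% of all probe sets with one. Without any of the other 5 arrays no member passed, at 7 to 9 members with an unadjusted p under 0.05.

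**Figure D2:**
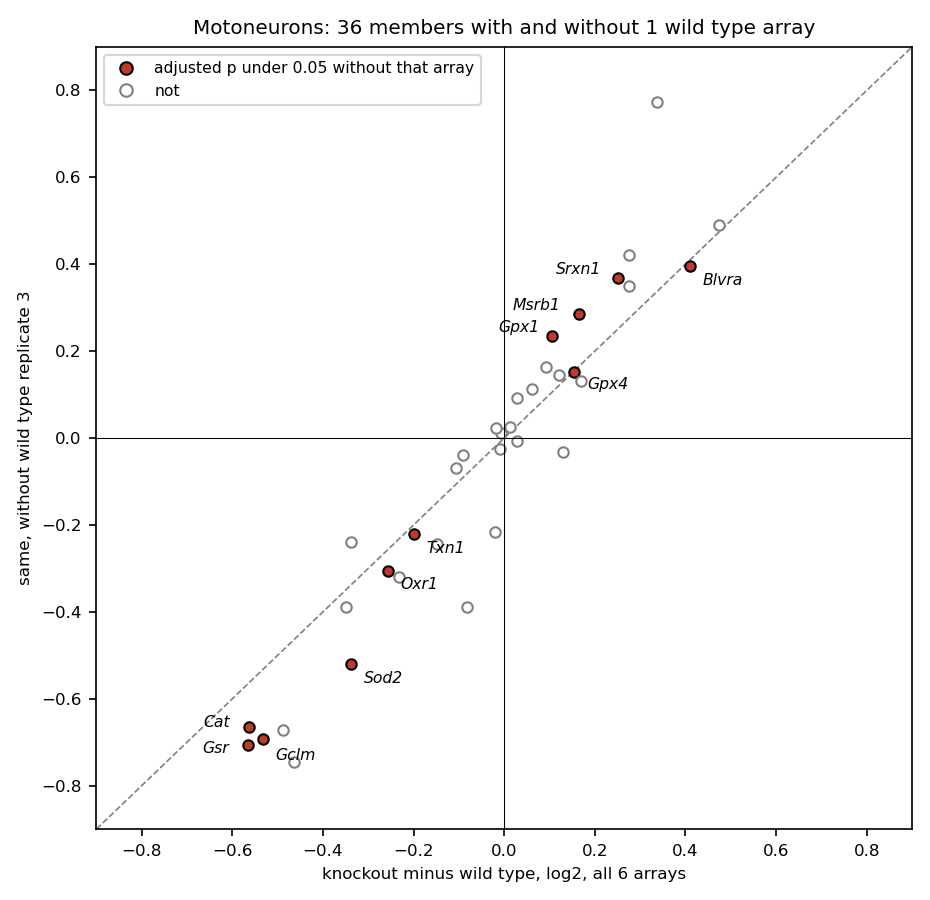
Knockout minus wild type in motoneurons (log2) with all 6 arrays (horizontal) and without wild type replicate 3 (vertical), for 36 members; filled points are the 11 with an adjusted p under 0.05 without that array, and the dashed line marks equal values. Cat, Gsr, Gclm and Sod2 lie farther from 0 without it, and Blvra and Gpx4 lie on the line.

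Several measures of the arrays moved with genotype in motoneurons. The spiked bioB control read 10.22 to 10.45 in knockout arrays, against 10.82 to 11.05 in wild type arrays (exact permutation p = 0.1, the smallest that 3 against 3 arrays allow). Astrocyte markers (10 of 10 measured) averaged 10.01 to 10.40 in knockout arrays and 10.41 to 10.70 in wild type arrays (exact p = 0.1), with 7 of 10 lower in knockout. Endothelial and mural markers averaged 6.98 to 7.18 in knockout arrays and 7.30 to 7.65 in wild type arrays (exact p = 0.1), with 9 of 10 lower. All 9 measured oligodendrocyte markers had lower values, at a mean of 10.29 to 10.86 in knockout arrays and 10.73 to 11.32 in wild type arrays (exact p = 0.2). Motoneuron markers averaged 11.34 to 11.71 in knockout arrays and 11.46 to 11.68 in wild type arrays. Xist read 5.18 to 9.71 in knockout arrays and 9.90 to 10.38 in wild type arrays (exact p = 0.1), with knockout replicate 2 the lowest. The part of these measures in the differences of Cat, the glutathione genes and the other members was not tested, and fewer cells of a type and less RNA per cell cannot be told apart in such samples.

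In sciatic nerve no member passed (limma, 0% of probe sets), and none had an unadjusted p under 0.05, where 2.31% of probe sets and 2.04% of genes had one. The groups overlapped for all 36 members, whereas they did not for 7.26% of probe sets. Differences ran from -0.21 to 0.35 with a median of 0.0089, and every adjusted p was 1. The largest value was that of Glrx3, an iron-sulfur cluster chaperone, which read 7.68, 7.81 and 7.37 in knockout arrays and 7.20, 7.08 and 7.53 in wild type arrays, a difference of 0.35 (SE 0.19) with overlap. Txn2 differed by 0.13 and Txnrd1 by 0.08. On the lower side, Nqo1 differed by -0.18 (11.17, 11.59 and 11.60 in knockout arrays and 11.68, 11.45 and 11.78 in wild type arrays), Prdx4 by -0.14 and Oxr1 by -0.12. Cat read 13.42, 13.68 and 13.57 in knockout nerves and 13.51, 13.74 and 13.64 in wild type nerves, a difference of -0.07 with a 95% interval of -0.29 to 0.14. The bioB control was lower in knockout nerves too (10.28 to 10.38, against 11.19 to 11.47), and muscle markers ranged from 9.84 to 10.87 in knockout and from 8.36 to 13.68 in wild type nerves.

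**Figure D3:**
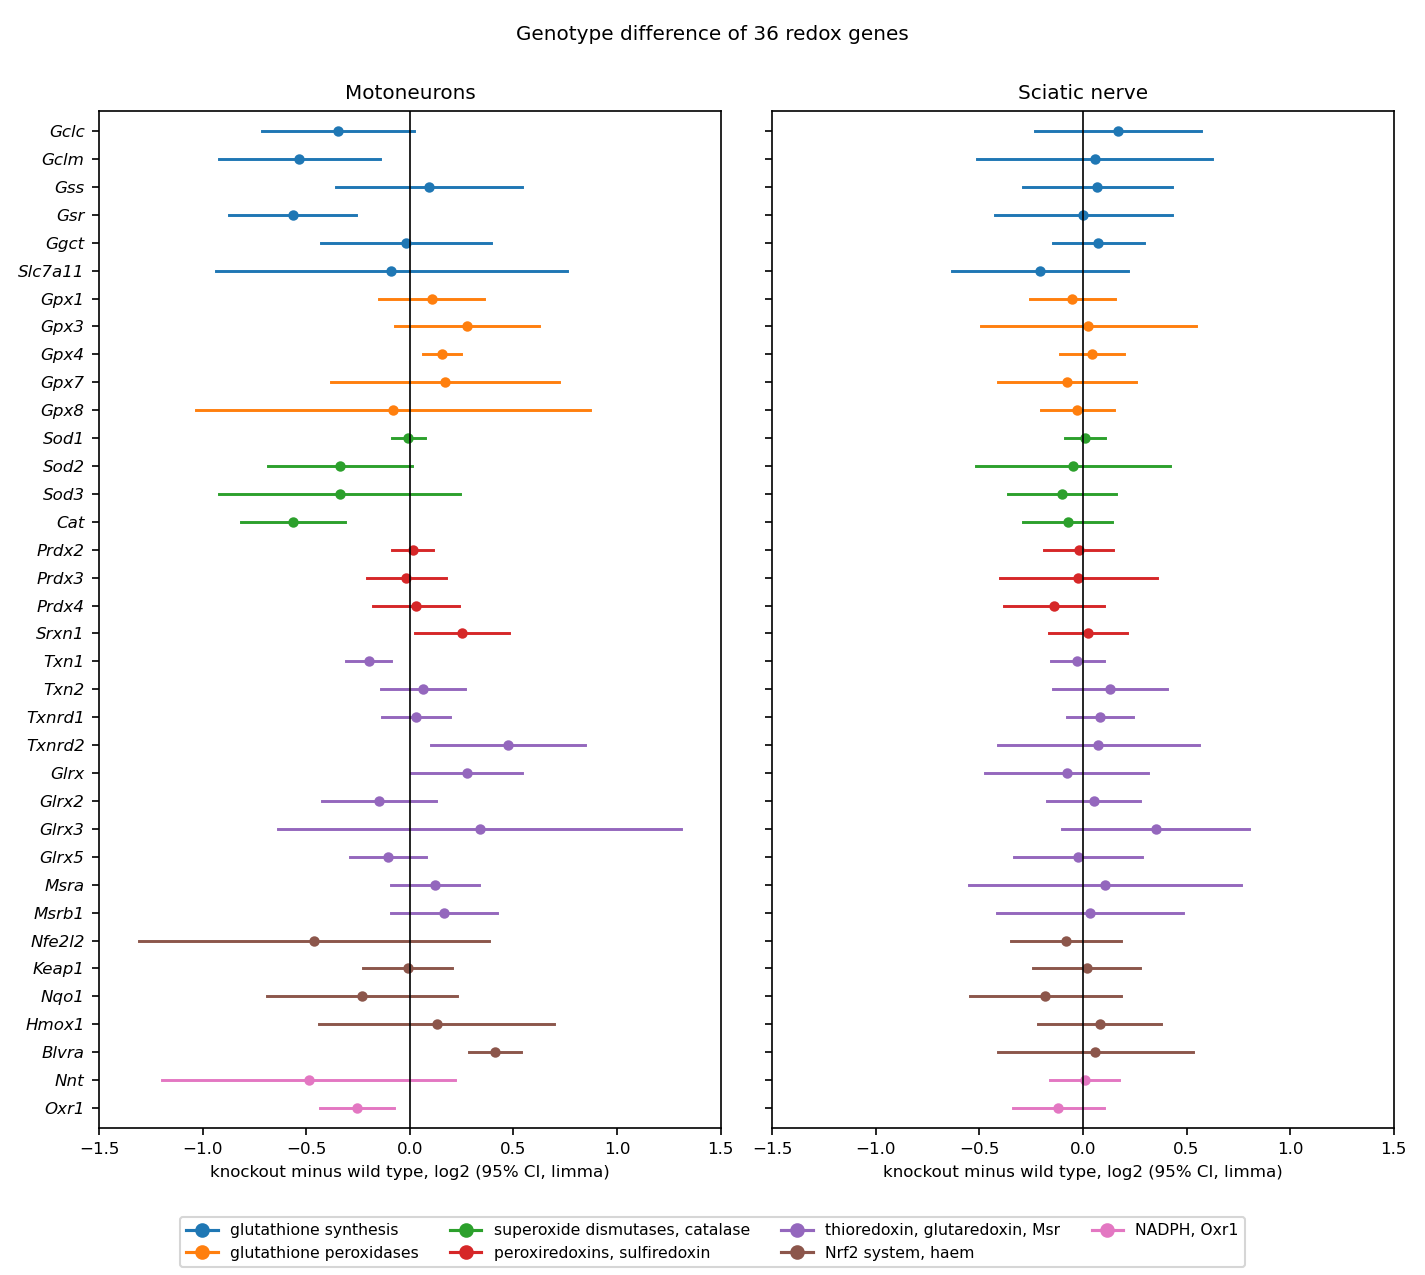
Knockout minus wild type (log2, horizontal axis) with its 95% confidence interval from limma for each of 36 members, in motoneurons (left) and sciatic nerve (right), coloured by role. In motoneurons the intervals of Gclm, Gsr, Cat, Txn1 and Oxr1 lie below 0 and those of Gpx4, Srxn1, Txnrd2, Glrx and Blvra above it, before adjustment; in nerve every interval spans 0.

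The difference between the genotype effects was tested directly over the 12 arrays. No member passed, and 4 (11.1%) had an unadjusted p under 0.05, against 7.54% of probe sets and 9.07% of genes. All 4 (3.81% of probe sets were so in this direction) had the more negative genotype difference in motoneurons: Cat by -0.49 (SE 0.15, adjusted p = 0.598), Gsr by -0.57 (adjusted p = 0.649), Txn1 by -0.17 (adjusted p = 0.641) and Gclc by -0.52 (adjusted p = 0.662). No member was thus shown to differ between the tissues in its genotype effect.

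The motoneuron and nerve samples differed in which defence transcripts they carried. Because the tissues are on different scales, a constant was added to the motoneuron arrays so that the median difference over all probe sets was 0 (1.04 in knockout, 1.09 in wild type). On the centred scale 34 of 36 members passed in knockout and 32 in wild type, where 74.7% and 72.8% of probe sets did. A member counts below as higher or lower only where it passed with the same sign on that scale, with the values as deposited, after joint quantile normalization and after centring on array medians. Differences are given on the centred scale, and values per array as deposited. In both genotypes, on separate arrays, Glrx, Gclc, Blvra, Glrx5 and Srxn1 were higher in motoneurons, and Gpx8, Sod3, Nfe2l2, Gpx7, Hmox1 and Gpx3 were lower. That is 5 and 6 of 36 (13.9% and 16.7%), where 12.9% and 22.1% of probe sets, or 16.3% and 18.3% of genes, met the same rule, so the numbers are near the background and it is the identity of the members that is described. Gclm and Sod2 met the rule as higher in wild type only, which brings the wild type counts to 7 higher and 6 lower, against 14.3% and 24.2% of probe sets. The test between genotypes described above compares the same 4 groups, and neither gene passed it.

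**Figure D4:**
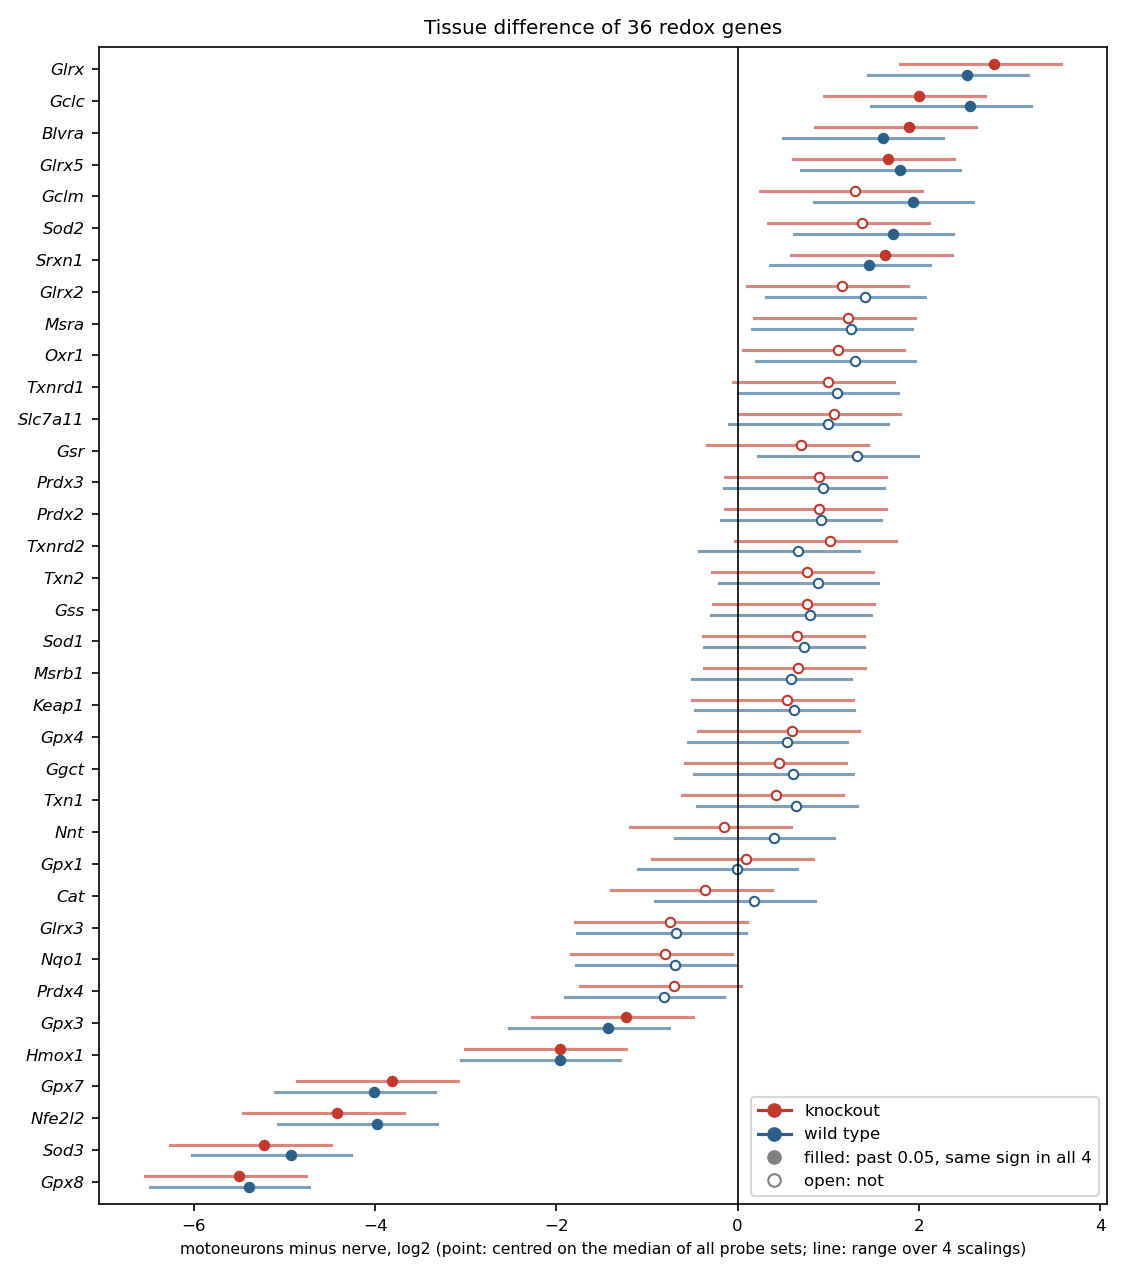
Motoneurons minus nerve (log2, horizontal axis) for 36 members in knockout (red) and wild type (blue); points are centred on the median of all probe sets, lines give the range over 4 scalings, and filled points passed with 1 sign under all 4. Gpx8, Sod3, Nfe2l2 and Gpx7 lie at -3.08 or lower under any of the 4 scalings, and many of the open points have lines that cross 0.

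Both subunits of the glutathione synthesis ligase stood on the motoneuron side, Gclm in wild type only. Gclc read 10.19, 9.81 and 10.27 in knockout and 10.38, 10.58 and 10.36 in wild type motoneurons, against 8.91, 9.09 and 9.41 in knockout and 8.93, 8.92 and 9.04 in wild type nerves. No motoneuron array overlapped a nerve array, although the deposited scale of motoneurons is the lower one. The difference was 2.0 (SE 0.19) in knockout and 2.57 (SE 0.15, adjusted p = 2.35e-06) in wild type. Gclm differed by 1.94 (SE 0.24) in wild type and by 1.29 in knockout. Gsr, Gss, Ggct and Slc7a11 were past the threshold on the centred scale, but not under all 4 scalings.

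The glutaredoxins Glrx and Glrx5 and the peroxiredoxin repair enzyme Srxn1 were higher in motoneurons as well, whereas Glrx2 and Glrx3 did not meet the rule. Glrx read 12.54, 12.39 and 12.47 in knockout and 12.30, 11.94 and 12.34 in wild type motoneurons, against 10.69, 10.93 and 10.41 in knockout and 10.80, 10.89 and 10.57 in wild type nerves. The difference was 2.83 (SE 0.13) in knockout and 2.53 (SE 0.15) in wild type, about 7.13-fold and 5.79-fold on the centred scale. Glrx5, which serves iron-sulfur cluster assembly in mitochondria, differed by 1.65 in knockout and 1.79 in wild type, with motoneuron arrays at 12.09 to 12.37 and nerve arrays at 11.39 to 11.83. Srxn1 differed by 1.63 in knockout and 1.45 in wild type, and Blvra by 1.89 and 1.60. Sod2 differed by 1.71 (SE 0.2) in wild type. As deposited, each of Gclc, Glrx, Glrx5, Srxn1 and Blvra read higher in every motoneuron array than in any nerve array.

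Among the members lower in motoneurons were 3 glutathione peroxidases, Gpx8, Gpx7 and Gpx3, and the extracellular Sod3. Gpx8 read 7.80, 6.75 and 8.12 in knockout and 7.82, 8.07 and 7.02 in wild type motoneurons, against 14.12, 14.19 and 13.98 in knockout and 14.14, 14.20 and 14.02 in wild type nerves. The difference was -5.50 (SE 0.3) in knockout and -5.39 (SE 0.26, adjusted p = 8.52e-07) in wild type. Sod3 read 6.17, 6.28 and 5.59 in knockout and 6.10, 6.40 and 6.55 in wild type motoneurons, against 12.18, 12.41 and 12.24 in knockout and 12.30, 12.55 and 12.27 in wild type nerves. It differed by -5.22 in knockout and -4.93 in wild type. Gpx7 differed by -3.82 and -4.01, with motoneuron arrays at 7.47 to 8.20 and nerve arrays at 12.60 to 13.12, and the secreted Gpx3 by -1.23 and -1.43. For Gpx8, Sod3 and Gpx7, motoneuron and nerve arrays were far apart relative to the spread within a tissue. Gpx3 read 11.47 to 12.13 in motoneurons and 13.72 to 14.61 in nerve, a smaller gap. Detection calls were not analysed here, so the low motoneuron values of Gpx8, Sod3 and Gpx7 may lie at the background of the array. Their true differences may be larger.

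Nrf2 was among the members most skewed to nerve. Nfe2l2 read 6.89, 5.80 and 6.67 in knockout and 7.36, 7.04 and 6.35 in wild type motoneurons, against 11.89, 11.82 and 12.03 in knockout and 11.97, 11.85 and 12.16 in wild type nerves. The difference was -4.42 (SE 0.27) in knockout and -3.98 (SE 0.27) in wild type. As for Gpx8, Sod3 and Gpx7, the motoneuron values of Nfe2l2 may lie at the background of the array, so its true difference may be larger. Its inhibitor Keap1 read 11.46 to 11.65 in motoneurons and 11.94 to 12.18 in nerve, and differed by 0.54 and 0.62 on the centred scale but by -0.50 and -0.47 as deposited, so its direction depends on the scaling. Genes known as Nrf2 targets went both ways: Hmox1 was lower in motoneurons, by -1.97 in knockout and -1.96 in wild type, while Gclc, Srxn1 and Blvra were higher. Hmox1 read 8.45, 8.51 and 8.47 in knockout and 8.16, 8.86 and 8.02 in wild type motoneurons, against 11.39, 11.53 and 11.53 in knockout and 11.41, 11.21 and 11.59 in wild type nerves. Hmox2, the constitutive haem oxygenase and not a member, was higher in motoneurons by 2.29 in knockout and 2.31 in wild type under all 4 scalings.

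**Figure D5:**
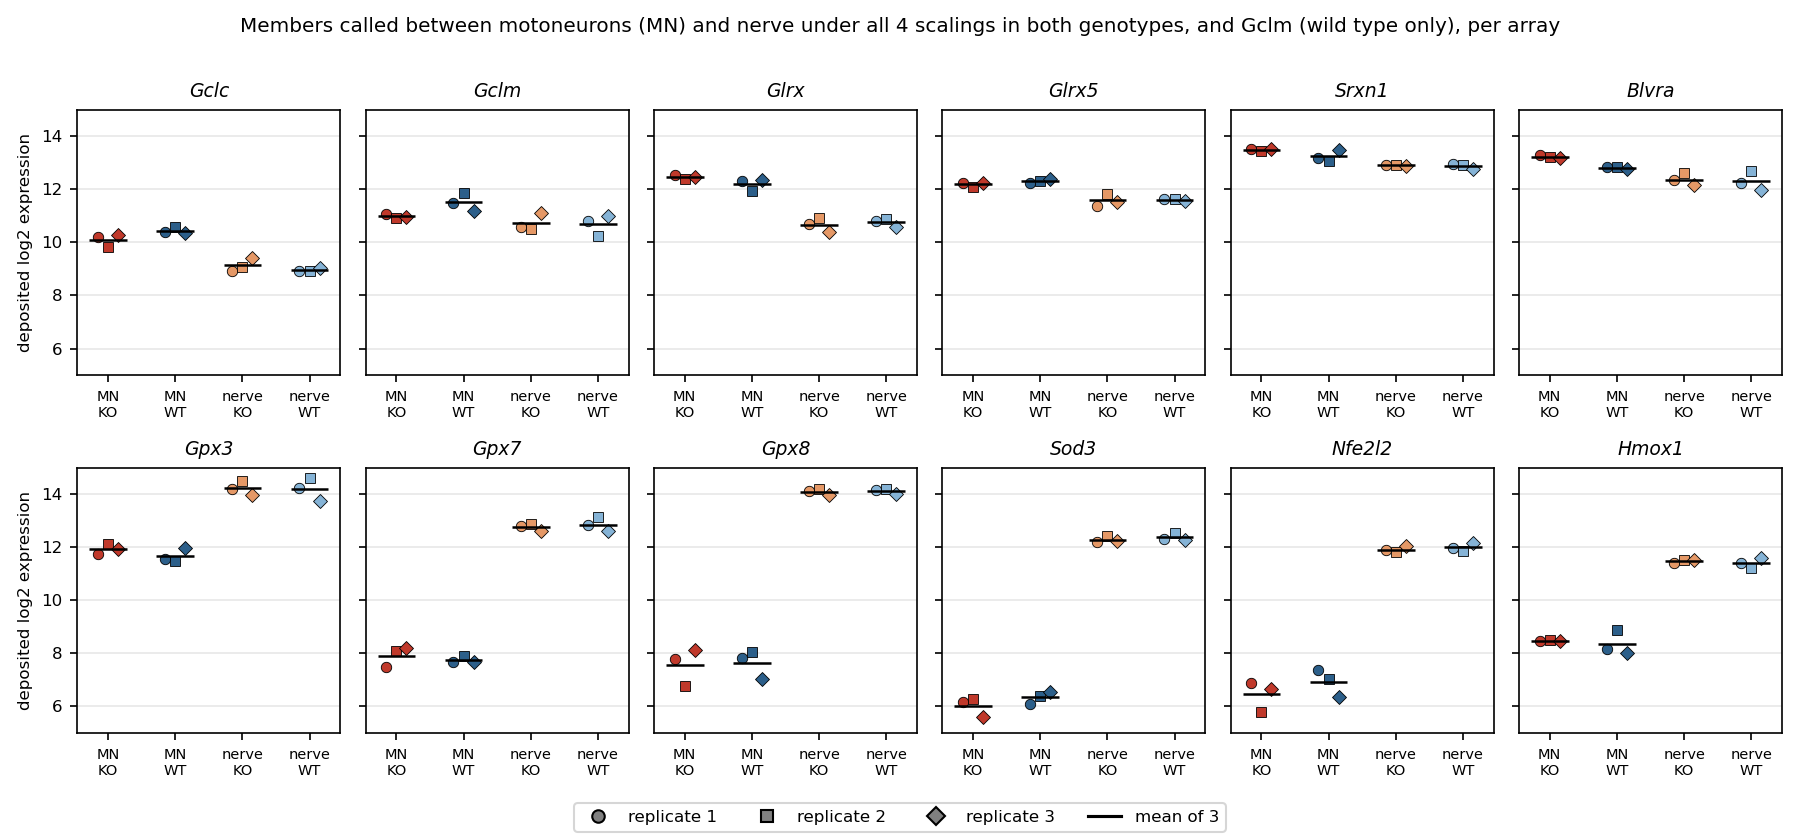
Deposited log2 expression (vertical axis) of 12 members in motoneurons (MN) and nerve of knockout and wild type mice, 3 arrays each, with bars at group means; the 2 tissues are on different deposited scales. Gpx7, Gpx8, Sod3, Nfe2l2 and Hmox1 read 8.86 or less in motoneurons and 11.21 or more in nerve, and Gclc, Glrx, Glrx5, Srxn1 and Blvra are above nerve in every motoneuron array.

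Several widely expressed defences could not be placed on either side. Sod1 differed by 0.73 in wild type on the centred scale and by -0.37 as deposited, and Cat by 0.18 (adjusted p = 0.159) and -0.91. In knockout Cat was lower on the centred scale, by -0.36 (adjusted p = 0.00595), and differed by -1.40 as deposited, -0.82 after joint quantile normalization and 0.38 on array medians. Prdx2, Prdx3, Txn1, Txn2, Txnrd2, Gpx4, Msrb1 and Gss likewise changed sign between these scalings in wild type. Prdx4 and Nqo1 were lower in motoneurons on the centred scale, by -0.70 and -0.80 in knockout and by -0.81 and -0.69 in wild type, without passing under all 4. Txnrd1, Glrx2, Msra and Oxr1 passed as higher on the centred scale in both genotypes, Msra by 1.22 in knockout and 1.26 in wild type, but not under all 4. Gpx1 and Nnt did not pass in either genotype, and Glrx3 passed as lower in knockout only, by -0.75. Markers of fibroblasts (9 of 9) and of macrophages or microglia (9 of 10 in wild type, 10 of 10 in knockout) were lower in motoneurons under all 4 scalings, as were 9 of 10 endothelial markers. Schwann cell markers (6 of 7) and adipocyte markers (7 of 8) were lower too, in each genotype. Of the 10 skeletal muscle markers, 7 were lower in wild type and 8 in knockout, where 1 was higher. Under the same rule, 7 of 9 oligodendrocyte markers were higher in motoneuron samples and 1 lower in each genotype. Of the astrocyte markers, 5 of 10 were higher and 3 lower. The part of these cell types was not tested, neither in the levels of Gpx8, Sod3, Gpx7, Gpx3, Hmox1 and Nfe2l2 nor in those of Gclc, Glrx, Glrx5, Srxn1 and Blvra.

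Neighbouring genes of the same pathways were read from 4 further lists. Among 26 other thiol genes, none passed for genotype in motoneurons and 11 had an unadjusted p under 0.05, 7 higher and 4 lower, where 17% of probe sets and 20.8% of genes had one. Of these 11, Hagh, which completes the glyoxalase pathway, differed by 0.27 (adjusted p = 0.130), the selenium carrier Selenop by -0.64 (0.144) and Park7 by 0.19 (0.197). The other 3 lists were near or below that background. Of 11 other NADPH genes 2 had one: Idh1, the cytosolic isocitrate dehydrogenase, at -0.59 (SE 0.086, adjusted p = 0.0945) and the mitochondrial malic enzyme Me3 at 1.13 (0.134). Of 14 other Nrf2 and iron genes 2 had one, the ferritin heavy chain Fth1 at -0.13 (0.132) and Nfe2l1 at -0.51 (0.240). Of 11 metallothioneins and oxidant sources 2 had one, Mt2 at -0.30 (0.251) and Mt1 at 0.45 (0.274). In nerve 1 of these 62 genes, the iron exporter Slc40a1, had an unadjusted p under 0.05 and none passed.

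Between tissues the same lists were read against a wild type background of 14.3% of probe sets higher and 24.2% lower in motoneurons under all 4 scalings, or 17.7% and 19.8% of genes. Of the 11 metallothioneins and oxidant sources, 6 were lower in motoneurons and none higher under all 4 scalings in wild type, among them the phagocyte oxidase genes Cyba at -5.66, Cybb at -5.37 and Ncf1 at -3.80. Of the 11 NADPH genes, 3 were lower, a share near the background, and none higher: Nadk, the cytosolic NAD kinase, at -2.65, Idh2 at -1.98 and Me1 at -1.13. The other thiol genes were split, 5 higher and 6 lower, with Ggt7 at 5.01 and the thioredoxin inhibitor Txnip at -5.27. Of the other Nrf2 and iron genes 3 were higher and 1 lower. The last was Osgin1, at -2.73, and the 3 were Hmox2, the autophagy receptor Sqstm1 at 1.43 and the transferrin receptor Tfrc at 1.75.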

How the data were processed

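RNA was hybridised to 12 Affymetrix arrays, 3 per tissue and genotype, after 20 ng was amplified and labelled, per the labels' protocols. The authors deposited log2 expression values per probe set, made with Affymetrix Expression Console 1.1, as the submitters' processing notes name it; how probes were summarized is not given in the sources used here. That the scale is log2 was inferred from the range of the values. Of 45101 probe sets, 64 controls were left out and 45037 tested; 34945 had 1 symbol in the platform annotation, 932 several and 9160 none, and 34741 matched the GRCm38.p6 RefSeq table by gene identifier. Sequences are RefSeq's. An array has no depth of reads, and precision is limited by the number of arrays. The labels call replicates biological without tying arrays to animals, so p-values measure the spread between these samples.

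Tests used limma 3.58.1 under R 4.3.3 (lmFit, eBayes with a mean trend; two-sided, Benjamini-Hochberg over all tested probe sets, threshold 0.05), each genotype contrast within its tissue. Values per array are given for the 3 members with the smallest unadjusted p in each direction and in the interaction, for up to 6 on each side of the tissue contrast, and for others chosen after their values were seen. Up to 3 genes of each further list are named by smallest unadjusted p. The members and all gene and marker lists were chosen with earlier results of these data known. On simulated data, log2 changes of 0.5 were recovered for 13.4% of 67 probe sets in motoneurons and 7.46% in nerve. Changes of 1 were recovered for 37.3% and 50.7% of 67, and changes of 2 for 95.5% and 97% of 66. The members' own genotype differences in motoneurons ran from -0.565 to 0.474. Plots were made with matplotlib 3.10.9 and Python 3.11.15. Alternatives covered normalization, dim probe sets, array weights, covariates, a replicate block, a gene's mean probe set and each array left out; the 18S covariate and the nerve fit without both Xist-high arrays were added after seeing the data.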

Additional observations from a re-analysis of the deposited data

How the results depend on the processing

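For genotype in motoneurons the count of members called, 0 with all arrays, was 1 among brighter probe sets (Blvra), 5 with array weights (Gsr, Cat, Srxn1, Txn1 and Blvra) and 1 with all 12 arrays in 1 fit (Cat), and ranged from 0 to 11 with 1 array left out, the 11 without wild type replicate 3. The 8 other settings that kept all arrays (no mean trend, a replicate block, a gene's mean probe set, array medians, quantiles and 3 covariates) gave 0, with 5 to 11 members at an unadjusted p under 0.05. In nerve and in the interaction the count was 0 under every setting run. The count between tissues was 33 to 35 in knockout and 30 to 33 in wild type with 1 array left out. Across scalings the share of calls that were higher in motoneurons, over all probe sets in wild type, was 50% centred, 17.4% as deposited, 54.6% after joint quantile normalization and 69% on array medians, with a median difference of 0, -1.09, 0.148 and 0.666, and the members split 24 to 8, 7 to 18, 17 to 11 and 27 to 6. In motoneurons, Nfe2l2 turned to 0.0082 with the Xist covariate and 0.0146 with the 18S covariate, which also turned Msrb1 to -0.0456 and Gpx1 to -0.0969. In nerve, Prdx4 turned to 0.0498 with the mean of its probe sets. In the wild type tissue contrast, Sod1 turned to -0.367 as deposited, and Cat to -0.91 as deposited, -0.38 after quantile normalization and -0.141 with the mean of its probe sets. The cause was not tested. Probe sets of 1 gene differed in sign for 12 of 24 members in motoneurons. Between genotypes in motoneurons, deviations of same-numbered arrays correlated at 0.0904, -0.0643 and -0.0789, within the range of differently numbered arrays (-0.12 to 0.146). In nerve, same-numbered arrays correlated at 0.026, 0.305 and 0.216, and differently numbered arrays at -0.303 to 0.0889. A pairing by replicate number in nerve is thus not excluded. With the replicate number as a block the counts were 0 for genotype in motoneurons, 0 in nerve, 0 for the interaction, 34 between tissues in knockout and 32 in wild type.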
